A study of Mus musculus with 10 samples.

Results

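The genes described here are 39 mouse genes of protein folding, grouped by compartment and, in the cytosol, by a label of heat-induced or constitutive. They are 6 heat-induced cytosolic chaperones and cochaperones, 8 constitutive cytosolic ones, 8 subunits of the cytosolic chaperonin TRiC, 4 mitochondrial chaperones, 10 chaperones and folding enzymes of the endoplasmic reticulum (ER), and 3 stress transcription factors. They were taken by symbol from the 43629 genes of the count table, by a rule that uses no measured value but was set with earlier results of these data known, and 38 of them were among the 10055 genes with enough counts to be tested. Only Bag3 was not. The heat-induced and constitutive labels were assigned with the lists, and induction by heat was not measured in these kidneys.

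The mice were UM-HET3 males, whose genomes are a mix of several inbred strains and differ from animal to animal, and kidney was the tissue. Both groups ate Purina 5LG6 chow, and in the treated group it contained rilmenidine, an imidazoline drug prescribed against high blood pressure, at 10 ppm for 1 month from the age of 3 months. All mice were 4 months old, and 6 control and 4 rilmenidine kidneys were compared to ask whether the drug altered chaperone transcripts in this tissue. Further control kidneys that the study's methods mention were not analysed here. RNA was taken from whole tissue, so fewer cells of a type and less RNA per cell cannot be told apart. The labels number the kidneys within each group and say no more of their origin, so p-values measure the spread between these libraries.

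Chaperones bind unfolded proteins and help them reach or regain their structure. In the cytosol, Hsf1 turns on the inducible Hsp70 genes and their partners when unfolded proteins accumulate, while Hspa8 and Hsp90ab1 are made at all times. In the ER, unfolded proteins activate Xbp1, Atf4 and Atf6, and Xbp1 and Atf6 raise chaperones such as Hspa5 through a promoter motif called the ER stress element. Mitochondria use a set of their own, led by Hspa9 and by the Hspd1 and Hspe1 chaperonin.

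The promoters of the ER group show this shared motif. In the RefSeq promoters (GRCm38.p6, 250 bases before to 50 bases after each start), the element was searched on both strands as CCAAT, any 9 bases, then CCACG. It stood in 6 of the 9 ER chaperones with a promoter, in 0 of the other members with one, and in 37 of all 27025 genes of the promoter table (0.137%; 39 of 32851 promoters, 0.119%). The matches are printed along the strand of each gene with the element in capitals. Their CCAAT and CCACG ends are alike because the search required them. The 9 bases between these ends and the bases around the element differ from site to site. An element on the opposite strand reads CGTGG first.
Hspa5 (chr2:34772020-34772048, + strand): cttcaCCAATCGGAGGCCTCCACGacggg
Hsp90b1, far (chr10:86705618-86705676, - strand): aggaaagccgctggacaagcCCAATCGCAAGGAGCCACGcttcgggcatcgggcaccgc
Hsp90b1, near (chr10:86705513-86705571, - strand): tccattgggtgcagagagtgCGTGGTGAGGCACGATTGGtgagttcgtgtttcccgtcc
Calr (chr8:84847055-84847113, - strand): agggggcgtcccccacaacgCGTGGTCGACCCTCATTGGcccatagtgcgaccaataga
Canx (chr11:50325780-50325838, - strand): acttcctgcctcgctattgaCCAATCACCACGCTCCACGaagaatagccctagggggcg
Pdia6 (chr12:17266471-17266529, + strand): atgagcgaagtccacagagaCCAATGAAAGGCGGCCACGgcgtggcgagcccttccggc
Dnajc3 (chr14:118937807-118937865, + strand): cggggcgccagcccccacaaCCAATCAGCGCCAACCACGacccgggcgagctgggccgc

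The elements lay between 47 and 212 bases before the RefSeq start, and Hsp90b1 held a pair of them. That of Hspa5 lay downstream of the GENCODE start of the gene (34771970). The CCAAT box alone, which is also the first part of the element, was present in all 9 of these ER genes, in 21 of the 31 members with a promoter, and in 41.1% of all genes (37.4% of all promoters). A match is a description of the letters in this window and says nothing of whether a factor was bound in these kidneys. Only exact matches at this spacing were counted, so an ER gene without one may still hold an imperfect element.

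**Figure D1:**
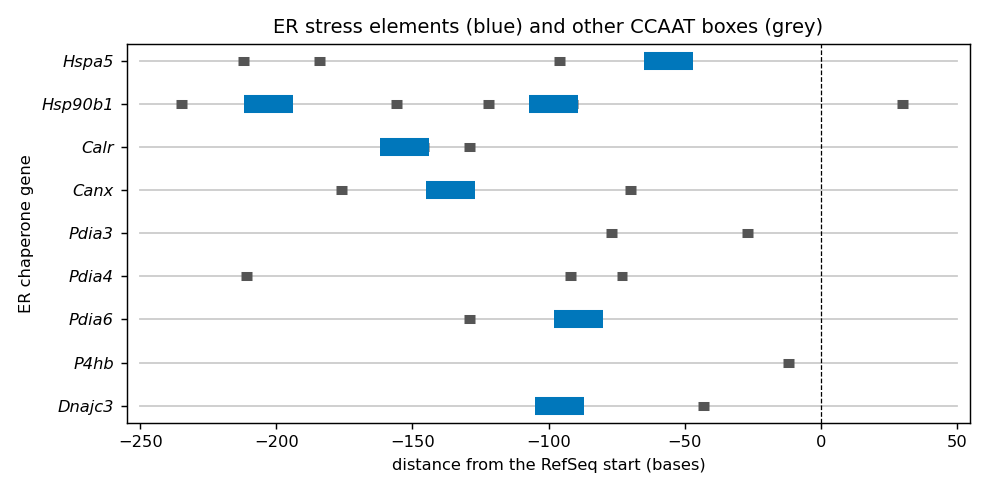
Positions of the ER stress element (blue) and of CCAAT boxes outside it (grey) in the promoters of the 9 ER chaperones that have one, as distance from the RefSeq start in bases (dashed line at the start). The element occurs in 6 of the 9 genes, all before the start, and a CCAAT box in all 9.

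The heat shock element was searched on both strands as 3 adjoining units of 5 bases whose middle bases alternate between GAA and TTC. It was found in 3 of the 31 members, Hsph1, Hspd1 and Hspe1, and in 0.659% of all genes (0.597% of all promoters). Of the 5 heat-induced genes with a promoter, Hsph1 alone matched, after its RefSeq starts. No mismatch was allowed, so a gene without a match may still hold an imperfect element. Hspd1 and Hspe1 are transcribed away from each other out of a common promoter region on chromosome 1 and share their overlapping matches, which lie 71 to 90 bases before the Hspe1 start and 126 to 145 bases before 1 of the 2 RefSeq starts of Hspd1. They lie downstream of the other Hspd1 start, inside a GENCODE exon. They are shown in capitals along the Hspe1 strand because this stretch is shared by both mitochondrial genes.
Hspe1, far match (chr1:55088053-55088077, + strand): ggtccGTTCTAGAACCTTCCggaag
Hspe1, near match (chr1:55088058-55088082, + strand): gttctAGAACCTTCCGGAAGgcccc

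The libraries held 863605 to 2559118 counts in control and 1813465 to 3232063 in rilmenidine kidneys, so members with few counts were measured coarsely. The tissue name was checked with markers, since part of the extraction text speaks of liver. Proximal tubule markers summed to between 39270 and 66390 normalized counts per 1000000 (CPM) in every library, while the liver markers Alb, Apoa1 and Cyp3a11 had at most 20, 4 and 11 counts. The fourth liver marker on the list, Ttr, had 443 to 2191 counts, and the 4 summed to 399 to 893 CPM. Malat1, a nuclear RNA, stood at 1182 to 2100 CPM in 4 control kidneys and at 284 to 398 CPM in the other 6 kidneys. Transcripts of olfactory and vomeronasal receptor genes summed to 4.27 to 6.81 CPM in control 6, rilmenidine 3 and rilmenidine 4 and to 45.7 to 387 CPM in the other 7. Both libraries of low receptor counts in the treated group were also its deepest. At an unadjusted p under 0.05, Umod was higher, 1 of 2 tested markers of the thick ascending limb. Aqp2 and Aqp3 were higher, 2 of 3 of principal cells, and Slc12a3 lower, 1 of 3 of the distal convoluted tubule. Of the tested markers, 0 of 6 of the proximal tubule, 0 of 2 of intercalated cells and 0 of 2 of podocytes reached that level. So did 0 of 3 endothelial, 0 of 3 immune and 0 of 2 blood markers. Over all genes 10.6% did. Blood markers summed to 808 to 7124 CPM in control and 2284 to 3273 CPM in rilmenidine kidneys. Immune markers summed to 35.7 to 174 CPM in control and 92.1 to 105 CPM in rilmenidine kidneys. The part of Malat1, depth and cell makeup in the results was not tested beyond the values given beside them.

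None of the 38 tested chaperone genes passed the threshold (edgeR quasi-likelihood test, Benjamini-Hochberg adjusted p under 0.05), and neither did any of the 10055 genes tested (0%). The smallest adjusted p over all genes was 0.174. DESeq2, run as an alternative, called 60 genes and 0 members. It gave no adjusted p for Hspa1a, Cct6a and Pdia4, so these could not be called there. At an unadjusted p under 0.05, edgeR gave 4 members (10.5%) and 1061 genes in all (10.6%). Trap1 and Xbp1 were higher with rilmenidine, as were 4.43% of all genes, and Hspa1a and Atf4 were lower, as were 6.13% of all genes. In 0 members did all rilmenidine kidneys lie above all control kidneys, against 0.796% of genes, and in 1 member, Atf4, all lay below them, against 0.875% of genes. Fitted differences above 0 were found in 20 of 38 members, against 50.3% of all genes. Without covariates, these shares lie near those of all genes. With log2 library size in the fit, 6 of the 38 members had an unadjusted p under 0.05, against 4.3% of all genes. With log2 Malat1 in the fit, 1 member did, against 3.03% of all genes.

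**Figure D2:**
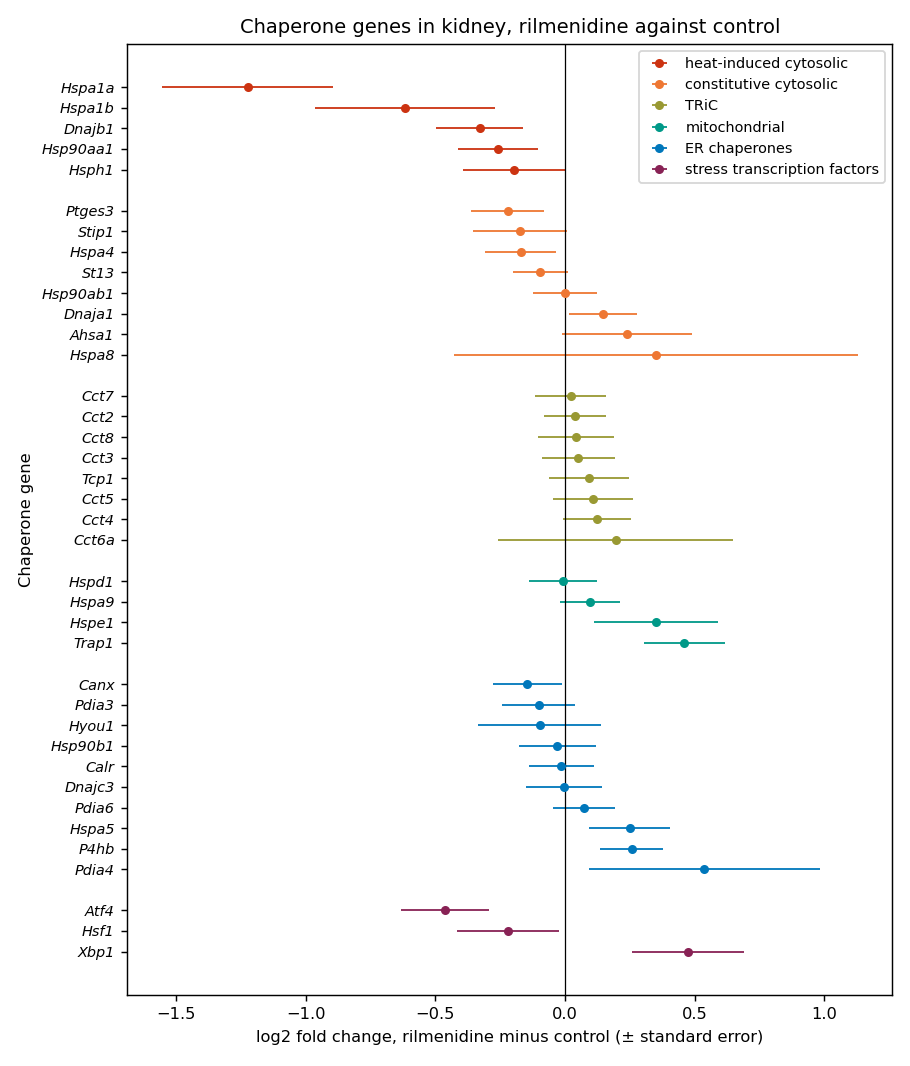
Fitted log2 fold change of each of the 38 tested chaperone genes (points, rilmenidine minus control, 6 control and 4 rilmenidine kidneys) with its standard error (lines), grouped and coloured by chaperone group. All 5 tested heat-induced cytosolic genes lie below 0, with Hspa1a farthest at -1.22, and all 8 TRiC subunits lie above 0, at 0.20 or less.

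In the heat-induced cytosolic group, all 5 tested genes had a fitted log2 fold change below 0, from -1.22 to -0.20 with a median of -0.33, while the median of all 10055 genes was 0.0021. None passed the adjustment. Leaving out any 1 kidney kept these 5 below 0. The mean level over the group's members was 6.18 ± 0.41 log2 CPM on the control diet (SD, n = 6) and 5.76 ± 0.17 with rilmenidine (SD, n = 4). Its range was 5.72 to 6.72 in control and 5.52 to 5.88 in rilmenidine kidneys, so the groups overlapped and the control kidneys were the more variable.

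Hspa1a, 1 of the 2 genes for inducible Hsp70 (ENSMUSG00000091971, chr17:34969190-34972156, - strand, GRCm38), had the smallest unadjusted p of any member. The control kidneys ranged from 5.81 to 20.4 CPM with a median of 14.1. Rilmenidine kidneys 1 to 4 had 4.64, 6.52, 5.60 and 7.18 CPM. Control 3 lay among the rilmenidine kidneys and the other 5 control kidneys lay above all of them. The means were 13.8 ± 5.81 (SD, n = 6) and 5.98 ± 1.11 CPM (SD, n = 4), a log2 fold change of -1.22 (SE 0.33, edgeR adjusted p = 0.232). These values rest on 7 to 42 reads per library, and an antisense gene, Gm20481, overlaps its exon on the opposite strand. The call turned with the filter on low counts. With no filter, Hspa1a passed at an adjusted p of 0.0222 with a log2 fold change of -1.22, among 241 of 27565 genes.

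Hspa1b, the neighbouring gene for the same protein (ENSMUSG00000090877, chr17:34956436-34959238, - strand), had a smaller fitted difference, and the difference between the pair was not tested. The control kidneys ranged from 20.1 to 77.5 CPM with a median of 41.2, and rilmenidine kidneys 1 to 4 had 23.8, 42.4, 29.4 and 25.6 CPM. Controls 2, 5 and 6 lay above every rilmenidine kidney and controls 1, 3 and 4 below all of them. The fitted log2 fold change was -0.62 (SE 0.35, edgeR adjusted p = 0.550).

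Dnajb1, the Hsp40 partner of inducible Hsp70, showed 67.3 to 112 CPM in control kidneys with a median of 79.3. Rilmenidine kidneys 1 to 4 had 73.1, 57.0, 73.1 and 72.8 CPM. Controls 2 and 5, both at 112 CPM, stood apart from the rest. The log2 fold change was -0.33 (SE 0.17, edgeR adjusted p = 0.513).

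Hsp90aa1, the inducible cytosolic Hsp90, ranged from 102 to 168 CPM in control kidneys with a median of 145. Its rilmenidine kidneys had 124, 89.6, 143 and 117 CPM. Rilmenidine 2 was the lowest of all 10, and the groups overlapped. Its log2 fold change was -0.26 (SE 0.15, edgeR adjusted p = 0.585), and some reads may have been counted at 2 pseudogenes of near-identical sequence, which held 29 to 133 counts per library in sum.

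Hsph1, an Hsp110 that exchanges nucleotide on Hsp70, had a log2 fold change of -0.20 (SE 0.20, edgeR adjusted p = 0.771), with rilmenidine 1 at 152 CPM against 252 to 432 CPM in the other 9 kidneys. Bag3, a cochaperone that links Hsp70 to autophagy, had 4 to 29 counts per library and failed the filter. It stood at 3.71 to 10.4 CPM in control and 2.32 to 9.06 CPM in rilmenidine kidneys.

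**Figure D3:**
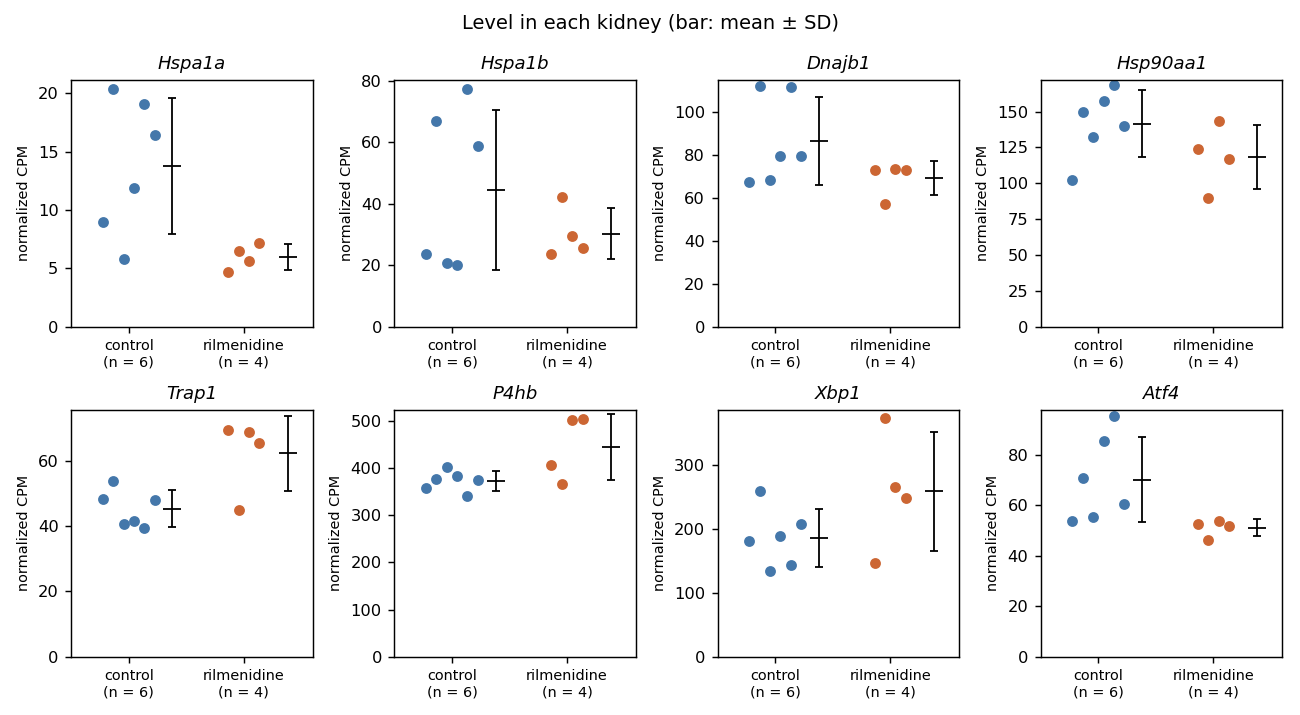
Normalized CPM in each kidney (points, blue control, orange rilmenidine) for 8 chaperone genes, with the group mean and SD as bars and each axis starting at 0. Hspa1a spans 5.81 to 20.4 CPM in control and 4.64 to 7.18 CPM in rilmenidine kidneys, and Trap1 is higher in 3 of the 4 rilmenidine kidneys than in any control kidney.

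The inducible Hsp70 genes varied together from kidney to kidney. After the mean of each group was subtracted from log2 CPM, Hspa1a and Hspa1b had Pearson's r = 0.838 over the 10 kidneys (permutation p = 0.00177, adjusted p = 0.0212 over 12 pairs of members). Spearman's rho was 0.879 (permutation p = 0.00174, adjusted p = 0.0125). Without controls 2 and 3, the kidneys farthest from the median of Hspa1a, r was 0.81, and within the 7 libraries of higher receptor counts it was 0.862. Controls 2, 5 and 6, the highest control kidneys for both genes, were also the deepest control libraries (1644042 to 2559118 counts). Controls 1, 3 and 4 held 863605 to 1334020. In the treated group rilmenidine 4, the deepest, was highest for Hspa1a and rilmenidine 2 for Hspa1b. The part of depth in the correlation was not tested. No stretch in the last 400 bases of either transcript had a near copy in the transcripts of another gene, the neighbour included (at least 95% identity over at least 100 bases).

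The other 5 pairs with Hspa1a did not pass the adjustment. With Dnajb1, r was 0.734 (permutation p = 0.0157, adjusted p = 0.074) and rho was 0.673 (permutation p = 0.0399, adjusted p = 0.0958), with r = 0.564 without controls 2 and 3 and r = 0.799 within the 7 libraries. For Hspa1a and Bag3, r was 0.67 (permutation p = 0.0355, adjusted p = 0.0851) and rho was 0.77 (permutation p = 0.0127, adjusted p = 0.0508). Without controls 2 and 3 that r was 0.79, and within the 7 libraries it was 0.683. The pairs of Hspa1a with Hsph1, Hsp90aa1 and Hspa8 had r of 0.326, 0.354 and 0.456, with adjusted permutation p of 0.425, 0.42 and 0.317.

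**Figure D4:**
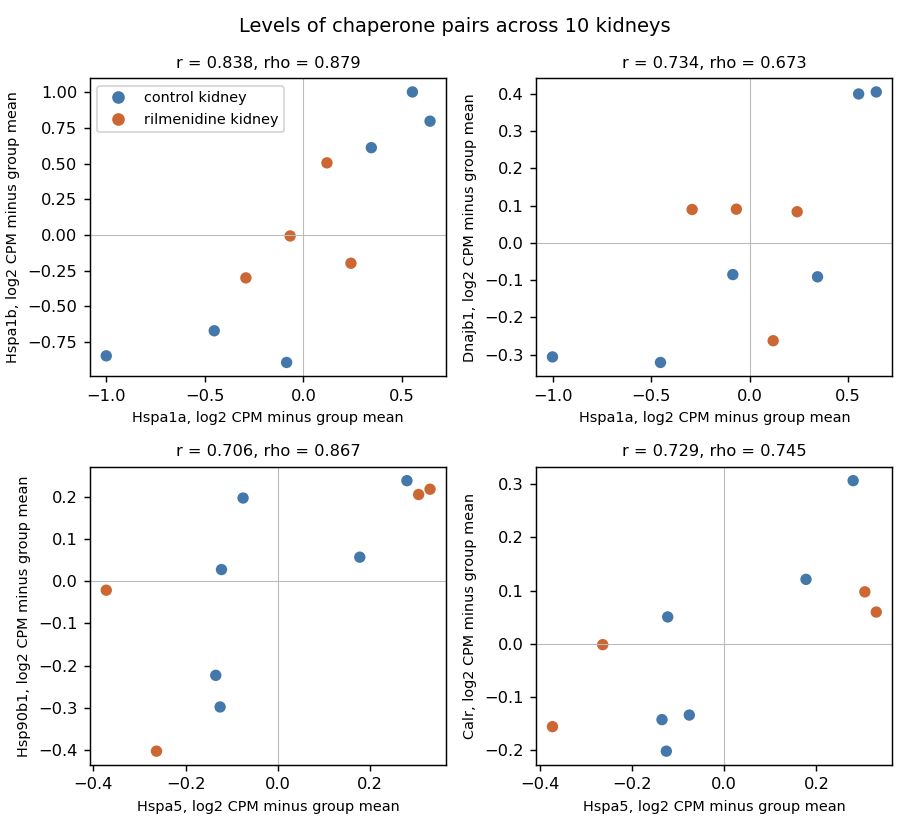
Level of a pair of chaperone genes in each of 10 kidneys (blue control, orange rilmenidine), as log2 CPM minus the mean of its own group on both axes. Hspa1b against Hspa1a gives r = 0.838, and Hsp90b1 and Calr against Hspa5 give r = 0.706 and 0.729.

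The constitutive cytosolic group lay on both sides of 0. Of its 8 genes, 4 had a fitted log2 fold change above 0 and 4 below, from -0.22 to 0.35 with a median of -0.047. The mean level was 6.85 ± 0.28 log2 CPM on the control diet (SD, n = 6) and 6.89 ± 0.30 with rilmenidine (SD, n = 4). None had an unadjusted p under 0.05.

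Hsp90ab1, the constitutive Hsp90, had the same mean in both groups. Control kidneys ranged from 908 to 1119 CPM with a median of 1041, and rilmenidine kidneys 1 to 4 had 1029, 944, 964 and 1148 CPM. The means were 1021 ± 90.9 (SD, n = 6) and 1021 ± 92.1 CPM (SD, n = 4). This gave a log2 fold change of 0.00084 (SE 0.12, edgeR adjusted p = 0.999).

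Hspa8, the constitutive Hsp70 (ENSMUSG00000015656, chr9:40800984-40810087, + strand), split the kidneys within both groups. The control kidneys ranged from 2.49 to 94.9 CPM with a median of 12.7, and rilmenidine kidneys 1 to 4 had 77.1, 11.9, 3.85 and 102 CPM. Controls 5 and 6 and rilmenidine 1 and 4 lay between 77.1 and 102 CPM, and the other 6 kidneys lay between 2.49 and 13.5 CPM. The highest kidney was 41.1 times the lowest, whereas the median of that ratio over the 38 tested members was 1.65 and 27 of them stayed under 2. The fit gave a log2 fold change of 0.35 (SE 0.78, edgeR adjusted p = 0.925), and without rilmenidine 4 it was -0.37.

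The 3′ end of Hspa8 is repeated in transcripts of other annotated genes. By the same search, near copies were found for 7 members, and Hspa8 had the most, 7 genes, of which Gm15459 and Gm8355 matched 317 bases of its last 400 at 100%. The 5 of them listed in the count table held 1 to 3 counts per library in sum. On the same strand, annotated exons of 3 other genes, Snord14c, Snord14d and Snord14e, overlap those of Hspa8. The part of these copies and overlaps in the spread of Hspa8 was not tested.

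Ptges3, the Hsp90 cochaperone p23, had the smallest unadjusted p of this group. Control kidneys ranged from 90.5 to 140 CPM with a median of 110, and rilmenidine kidneys 1 to 4 had 82.3, 99.9, 98.7 and 92.4 CPM. Control 1 was the highest, and the groups overlapped. The fitted difference was a log2 fold change of -0.22 (SE 0.14, edgeR adjusted p = 0.609). The Hsp110 Hspa4, the Hsp70 to Hsp90 adaptor Stip1 and the Hsp70 cochaperone St13 had log2 fold changes of -0.17, -0.17 and -0.10. Dnaja1, an Hsp40, and Ahsa1, which stimulates the Hsp90 ATPase, had 0.15 and 0.24.

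**Figure D5:**
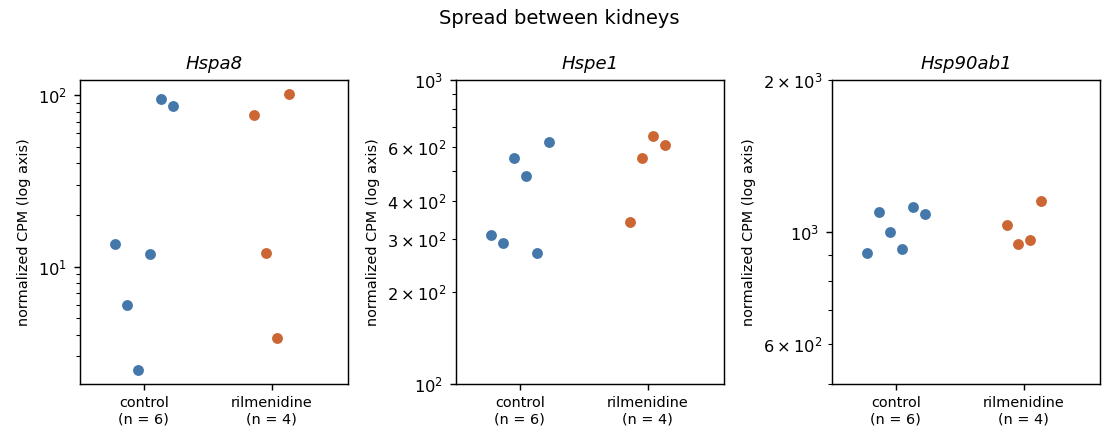
Normalized CPM in each kidney on a log axis for Hspa8, Hspe1 and Hsp90ab1 (blue control, orange rilmenidine). Hspa8 falls into a low range of 2.49 to 13.5 CPM and a high range of 77.1 to 102 CPM in both groups, and Hsp90ab1 varies 1.26-fold over the 10 kidneys.

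TRiC is a ring of 8 different subunits that folds actin, tubulin and other cytosolic proteins. All 8 genes had a fitted log2 fold change above 0, but the values were small, from 0.022 to 0.20 with a median of 0.071. The mean level was 5.93 ± 0.10 log2 CPM on the control diet (SD, n = 6) and 6.00 ± 0.21 with rilmenidine (SD, n = 4), a difference smaller than either SD. With log2 library size in the fit 5 of the 8 stayed above 0, and with log2 Malat1 in the fit 4 did.

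Cct4 had the smallest unadjusted p of the subunits. Its control kidneys ranged from 90.2 to 128 CPM with a median of 99.0, and rilmenidine kidneys 1 to 4 had 122, 101, 121 and 108 CPM. The highest value was that of control 4, within a full overlap of the groups. Rilmenidine minus control was 0.12 on the log2 scale (SE 0.13, edgeR adjusted p = 0.788). Cct6a lay farthest from 0 and was the least well counted, with 2 to 27 reads per library. It ranged from 1.66 to 11.2 CPM in control kidneys with a median of 6.18, and rilmenidine kidneys 1 to 4 had 11.6, 2.17, 9.45 and 4.68 CPM. Rilmenidine kidneys were both the highest and the second lowest, and the log2 fold change of 0.20 had an SE of 0.45 (edgeR adjusted p = 0.927). The other 6 subunits had log2 fold changes from 0.022 in Cct7 to 0.11 in Cct5.

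In the mitochondrial group, 3 of 4 genes had a fitted log2 fold change above 0, with a median of 0.22, and none passed the adjustment. The mean level was 7.28 ± 0.17 log2 CPM on the control diet (SD, n = 6) and 7.51 ± 0.20 with rilmenidine (SD, n = 4), and the ranges overlapped. The deepest libraries were those of rilmenidine 3 and 4, and with log2 library size in the fit the median was 0.013.

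Trap1, the mitochondrial Hsp90 (ENSMUSG00000005981, chr16:4039971-4077827, - strand), had the largest fitted value of the 4. Control kidneys ranged from 39.3 to 53.9 CPM with a median of 44.8. Rilmenidine kidneys 1 to 4 had 69.6, 45.1, 68.9 and 65.6 CPM. Rilmenidine 2 lay within the control range and the other 3 rilmenidine kidneys above it. The means were 45.3 ± 5.68 (SD, n = 6) and 62.3 ± 11.6 CPM (SD, n = 4), a log2 fold change of 0.46 (SE 0.15, edgeR adjusted p = 0.313). With log2 library size in the fit it was 0.37, and with log2 Malat1 0.31. Dnase1 overlaps Trap1 on the opposite strand.

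Hspd1 and Hspe1, the ring and the lid of the mitochondrial chaperonin, lie beside each other and had different values. Hspd1 ranged from 128 to 177 CPM in control kidneys with a median of 148, and rilmenidine kidneys 1 to 4 had 143, 130, 169 and 160 CPM. The groups covered the same range, with a log2 fold change of -0.0075 (SE 0.13, edgeR adjusted p = 0.991). A near copy, Hspd1-ps3, held 5 to 35 counts per library. Hspe1 ranged from 270 to 624 CPM in control kidneys with a median of 395, and rilmenidine kidneys 1 to 4 had 339, 552, 652 and 608 CPM. Controls 1, 2 and 5 and rilmenidine 1 lay between 270 and 339 CPM and the other 6 kidneys between 483 and 652 CPM. The log2 fold change of Hspe1 was 0.35 (SE 0.24, edgeR adjusted p = 0.635), and the difference between the paired genes was not tested. With log2 library size in the fit Hspe1 was at 0.045, and with log2 Malat1 at 0.12. Hspa9, the mitochondrial Hsp70, had a log2 fold change of 0.097 (SE 0.12, edgeR adjusted p = 0.824).

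The ER group also lay on both sides of 0. Of its 10 genes, 4 had a fitted log2 fold change above 0 and 6 below, from -0.15 to 0.54 with a median of -0.0085. The mean level was 6.94 ± 0.13 log2 CPM on the control diet (SD, n = 6) and 7.01 ± 0.13 with rilmenidine (SD, n = 4). None had an unadjusted p under 0.05.

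Hspa5, the ER Hsp70 also called BiP and the usual readout of ER stress (ENSMUSG00000026864, chr2:34771970-34777547, + strand), ranged from 304 to 406 CPM in control kidneys with a median of 312. Rilmenidine kidneys 1 to 4 had 302, 325, 491 and 483 CPM. Rilmenidine 3 and 4 were the highest of all 10 kidneys and rilmenidine 1 the lowest. The log2 fold change was 0.25 (SE 0.16, edgeR adjusted p = 0.599). Rilmenidine 3 and 4 were also the deepest libraries and the treated libraries of low receptor counts. Within the 7 libraries of higher receptor counts the log2 fold change was -0.069, and with log2 library size in the fit it was -0.049.

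Hsp90b1, the ER Hsp90 whose promoter held a pair of elements, ranged from 211 to 307 CPM in control kidneys with a median of 268. Its rilmenidine kidneys had 249, 191, 295 and 292 CPM. Rilmenidine 2 was the lowest and control 5 the highest, and the groups overlapped. Its log2 fold change was -0.030 (SE 0.15, edgeR adjusted p = 0.971).

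P4hb, a protein disulfide isomerase and the subunit that collagen prolyl hydroxylase shares with it, had the smallest unadjusted p of the group. Control kidneys ranged from 341 to 402 CPM with a median of 376, and rilmenidine kidneys 1 to 4 had 406, 366, 503 and 505 CPM. All rilmenidine kidneys except the second lay above the control range. This gave a log2 fold change of 0.26 (SE 0.12, edgeR adjusted p = 0.473), and within the 7 libraries of higher receptor counts it was 0.054.

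Pdia4, another disulfide isomerase, lay farthest from 0 in the group and had 1 to 22 counts per library. Control kidneys ranged from 0.743 to 5.99 CPM with a median of 5.14, and rilmenidine kidneys 1 to 4 had 3.48, 11.4, 7.70 and 3.44 CPM. Rilmenidine 2 and 3 lay above the control range and the other 2 within it. The fit gave a log2 fold change of 0.54 (SE 0.45, edgeR adjusted p = 0.708).

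The remaining ER genes lay close to 0. The lectin chaperones Calr and Canx, which hold newly made glycoproteins, had log2 fold changes of -0.014 and -0.15. Pdia3, the isomerase that works with them, had -0.10, and Pdia6 had 0.073. The nucleotide exchange factor Hyou1 had -0.098 and the Hsp40 Dnajc3 had -0.0030. The 6 genes with an exact match to the ER stress element therefore lay between -0.15 and 0.25.

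In the ER group, 1 of the 6 pairs with Hspa5 passed the adjustment, and by rank alone. Between Hspa5 and Hsp90b1, r was 0.706 (permutation p = 0.0265, adjusted p = 0.0796) and rho was 0.867 (permutation p = 0.00209, adjusted p = 0.0125). Without rilmenidine 3 and 4, r was 0.591, and within the 7 libraries of higher receptor counts it was 0.58. Between Hspa5 and Calr, r was 0.729 (permutation p = 0.0185, adjusted p = 0.074) and rho was 0.745 (permutation p = 0.018, adjusted p = 0.054), with r = 0.773 without rilmenidine 3 and 4 and 0.744 within the 7 libraries. The other 4 pairs were weaker. Hspa5 had r = 0.528 with Dnajc3, 0.365 with Pdia6, 0.223 with Hyou1 and 0.0528 with Pdia4, with adjusted permutation p of 0.237, 0.42, 0.573 and 0.887.

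Of the 3 stress transcription factors, 1 lay above 0 and 2 below, and none passed the adjustment. Hsf1, the heat shock factor, ranged from 20.4 to 32.7 CPM in control kidneys with a median of 27.2, and rilmenidine kidneys 1 to 4 had 24.4, 16.8, 22.4 and 27.5 CPM. Rilmenidine 2 was the lowest of all and the groups overlapped. The fitted difference was a log2 fold change of -0.22 (SE 0.20, edgeR adjusted p = 0.743). Hsf1 and Xbp1 are controlled largely after transcription, so their transcript levels are not a measure of their activity.

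Xbp1, the factor spliced by the ER sensor Ire1 (ENSMUSG00000020484, chr11:5520659-5525893, + strand), ranged from 134 to 259 CPM in control kidneys with a median of 185. Rilmenidine kidneys 1 to 4 had 147, 374, 265 and 249 CPM. Rilmenidine 2 was by far the highest and rilmenidine 1 lay near the lowest control kidneys. Rilmenidine minus control was 0.48 on the log2 scale (SE 0.22, edgeR adjusted p = 0.454). Without rilmenidine 2 it was 0.25, with an unadjusted p over 0.05, and with log2 Malat1 in the fit it was 0.20. Gene counts do not separate the spliced from the unspliced form.

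Atf4, the factor translated when the integrated stress response is active (ENSMUSG00000042406, chr15:80255184-80257541, + strand), was the 1 member whose groups did not overlap. Control kidneys ranged from 53.9 to 95.4 CPM with a median of 65.6. Rilmenidine kidneys 1 to 4 had 52.8, 46.2, 53.9 and 51.8 CPM. Control 1 and rilmenidine 3 were separated by 0.0017 CPM, so the groups nearly touch. The log2 fold change was -0.46 (SE 0.17, edgeR adjusted p = 0.339), and with log2 Malat1 in the fit it was -0.29.

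Of 7 listed genes of the ATF4 and CHOP arm, which holds Atf4 targets and subunits of the phosphatase that ends the response, 3 had enough counts to be tested. Sesn2, Ppp1r15a and Ppp1r15b had log2 fold changes between 0.049 and 0.18. Ddit3, Trib3, Asns and Chac1 were too low to be tested.

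A wider list of 65 genes of the same pathways, chosen by function, was read from the same fit. Symbols were matched for 64 and 55 were tested, of which 34 had a fitted log2 fold change above 0, 5 were higher and 1 lower at an unadjusted p under 0.05, and 0 passed the adjustment. The shares over all genes were 4.43% higher and 6.13% lower. Cryab, the small heat shock protein alpha B-crystallin, had the smallest p. It stood at 46.0 to 67.1 CPM in control and 70.2 to 140 CPM in rilmenidine kidneys, so the groups did not overlap. The means were 56.0 ± 6.75 (SD, n = 6) and 108 ± 28.6 CPM (SD, n = 4), a log2 fold change of 0.94 (SE 0.17, edgeR adjusted p = 0.174). Its direction was opposite to that of the 5 tested heat-induced cytosolic members. Hspb1, another small heat shock protein of the list, had 0.23 (SE 0.34, edgeR adjusted p = 0.866), and Hspb8 was too low to be tested. Besides Cryab, Dnajc7 and Pfdn5 had all rilmenidine kidneys above all control kidneys, against 0.796% of all genes. None of the list had all below, against 0.875% of all genes.

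Among the 22 tested cytosolic genes of the list, 12 had a log2 fold change above 0, with a median of 0.053. The 6 prefoldin genes among them, whose complex hands unfolded actin and tubulin to TRiC, were singled out after their values were seen. All 6 lay above 0, as did 50.3% of all genes, with a median of 0.29. Pfdn5 had 0.40 (SE 0.14, edgeR adjusted p = 0.321) and Pfdn1 had 0.37 (SE 0.14, edgeR adjusted p = 0.337). Grpel1, the exchange factor of mitochondrial Hsp70, had 0.38 (edgeR adjusted p = 0.379), and Dnajc7, a cytosolic Hsp40, had 0.35 (edgeR adjusted p = 0.466). Ppid, a cyclophilin partner of Hsp90, was the lower gene, at -0.46 (edgeR adjusted p = 0.331). Among 21 tested ER genes of the list, none had an unadjusted p under 0.05, and their median was 0.061.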

How the data were processed

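The authors deposited raw counts of reads per Ensembl gene. Per the labels and the submitters' processing notes, libraries captured transcript 3′ ends (a CEL-Seq2-type protocol), and bcl2fastq 1.8.4, Trimmomatic 0.32, STAR 2.5.2b, featureCounts 1.5 and build mm10 were used. The strand setting, annotation release and handling of molecular identifiers are not given in the sources used here, so overlapping genes and near copies are uncertain. Groups came from the labels.

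Genes with at least 6 counts in at least 66.6% of the 10 libraries were kept, normalized by RLE and fitted without covariates by the quasi-likelihood test of edgeR 4.0.16 (R 4.3.3), with Benjamini-Hochberg adjustment over all genes tested and a threshold of 0.05. CPM are normalized, and logarithms used a prior count of 2. Levels were not compared between genes. Near copies were searched with BLAST+ 2.17.0 in GENCODE M21 transcripts, and coordinates are GRCm38. Correlations used 100000 permutations (SciPy 1.17.1). The scripts were tested on simulated data.

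Members, lists and the rule for named genes were chosen with earlier results of these data known. Values in each kidney are given for 11 fixed members and, per group, for the smallest p and the fold change farthest from 0. Hsph1, Dnajb1, Bag3, Hspe1 and Cryab were described further after their values were seen.

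Alternatives were TMM, other count filters, DESeq2 1.42.0, the likelihood ratio test, library size or Malat1 as a covariate, a replicate block, libraries of higher receptor counts, each kidney left out and, chosen after seeing the data, libraries with Malat1 under 1000 CPM.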

Additional observations from a re-analysis of the deposited data

Results flagged for a closer look

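In 3 of 76 checks of a member within a group, 1 kidney stood apart from the rest of its group by Dixon's criterion at the 95% level, where chance gives about 1 in 20. All 3 concern rilmenidine 2. Dnajb1 stood at 57.02 CPM there, against 72.76 to 73.11 CPM in the other rilmenidine kidneys. Cct2, a TRiC subunit, stood at 152.6 CPM, against 164.6 to 165.8 CPM. Trap1 stood at 45.07 CPM, against 65.58 to 69.59 CPM, and without this kidney its log2 fold change was 0.58. The same library held the most receptor gene transcripts (387 CPM) and the most genes with a count (22848). The part of these in the values was not tested.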

How the results depend on the processing

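The thinnest members set the limit of what could be measured, since Hspa1a, Bag3, Cct6a and Pdia4 had at most 42 counts in any library and Hspa8 as few as 3. A count of 0 calls was given by edgeR's quasi-likelihood test, beside 1061 genes and 4 members at an unadjusted p under 0.05. With no filter on low counts 241 genes and 1 member, Hspa1a, passed, with DESeq2 60 genes, and with the likelihood ratio test 44 genes. Without the filter, the unadjusted p of other members also moved at nearly the same fold changes, in both directions. DESeq2 gave Hspa1a, Cct6a and Pdia4 no adjusted p. Hspa1a was not tested with at least 10 counts required in every library. In that fit 2 constitutive cytosolic members lay above 0 and Hsp90ab1 was at -0.0040. In the 19 alternatives that tested it, Hspa1a stayed between -1.69 and -0.89.

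With log2 library size in the fit, 1 constitutive, 5 TRiC and 2 ER members lay above 0, and the mitochondrial median was 0.013. The heat-induced median was -0.52. An unadjusted p under 0.05 was found for 6 of 38 members, against 4.3% of all genes, and 0 members passed the adjustment. These 6, all lower, were Hspa1a, Hspa1b, Hsp90aa1, Dnajb1, Stip1 and Atf4. Signs turned for Hspa8 (-0.38), Hsp90ab1 (-0.12), Dnaja1 (-0.064), Cct3 (-0.010), Cct5 (-0.0064), Cct7 (-0.080), Hspa9 (-0.019), Hspa5 (-0.049) and Pdia6 (-0.016). With log2 Malat1 in the fit, 1 member had an unadjusted p under 0.05, 4 TRiC members lay above 0, and the transcription factor median was -0.0042. Signs turned for Hsp90ab1 (-0.052), Ahsa1 (-0.18), Ptges3 (0.0071), Tcp1 (-0.060), Cct3 (-0.041), Cct5 (-0.11), Cct7 (-0.054), Hsp90b1 (0.056), Calr (0.020), Pdia6 (-0.056) and Hyou1 (0.12).

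Within the libraries of higher receptor counts, 2 constitutive and 2 ER members lay above 0, and the transcription factor median was -0.40. Signs turned for Hsp90ab1 (-0.032), Dnaja1 (-0.062), Cct8 (-0.040), Hspa9 (-0.047) and Hspa5 (-0.069). Within the libraries with Malat1 under 1000 CPM, chosen after seeing the data, 5 TRiC members and 2 transcription factors lay above 0, with a transcription factor median of 0.021. Signs turned for Hsp90ab1 (-0.091), Ahsa1 (-0.17), Ptges3 (0.043), Tcp1 (-0.042), Cct5 (-0.11), Cct7 (-0.062), Hsp90b1 (0.061), Calr (0.0024), Pdia6 (-0.051), Hyou1 (0.083) and Hsf1 (0.021). The cause of these turns was not tested.

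The replicate numbers did not pair the kidneys, since deviations of kidneys with the same number correlated at 0.076, 0.077, -0.077 and -0.0070 and no kidney correlated best with its own number. With the replicate block, 3 genes and 1 member passed, Hspa8, at 2.26 (edgeR adjusted p = 0.0415). Numbers 5 and 6 occur in control only, so controls 5 and 6 did not enter the fold changes of this fit. For Hspa8 these were the high controls, at 94.9 and 86.2 CPM. In this fit 1 heat-induced and 8 ER members lay above 0. Signs turned for Hspa1b (0.0045), Cct2 (-0.031), Cct6a (-0.030), Hspd1 (0.028), Hsp90b1 (0.036), Calr (0.10), Hyou1 (0.017) and Dnajc3 (0.062).

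With each kidney left out in turn, 0 to 37 genes and 0 members passed, the highest without control 6, followed by 33 without control 2 and 6 without rilmenidine 1. Members with an unadjusted p under 0.05 numbered 3 to 7, the highest without rilmenidine 1. Above 0 lay 0 to 1 heat-induced (the 1 is Bag3 without rilmenidine 1, at 0.17, a gene too low to be tested over all 10 kidneys, and the other 5 stayed below 0), 2 to 4 constitutive (2 without rilmenidine 4) and 4 to 7 ER members (7 without control 5). Log2 fold changes crossed 0 for Hspa8 (-0.37 to 0.85), Hsp90ab1 (-0.060 to 0.038), Tcp1 (-0.028 to 0.20), Cct2 (-0.0053 to 0.085), Cct6a (-0.10 to 0.47), Cct7 (-0.073 to 0.073), Cct8 (-0.016 to 0.12), Hspd1 (-0.070 to 0.057), Hsp90b1 (-0.10 to 0.088), Calr (-0.052 to 0.056), Hyou1 (-0.19 to 0.0076) and Dnajc3 (-0.080 to 0.11).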
